A study of Mus musculus with 29 samples.

Results

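Adenomas of the liver, benign tumours of hepatocytes, were compared with liver of the same age and the same exposure label. The comparison took the libraries of 10 months labelled TBT and split them by their tissue label, which gave 7 adenomas (replicates 1, 3, 5, 6, 7, 11 and 12) and 5 livers (replicates 2, 4, 8, 9 and 10), or 12 of the 29 libraries of the study. All came from male mice whose dams drank water with tributyltin (TBT), an organotin compound, while pregnant and nursing. The control arm, labelled VEH, has 6 livers of 10 months and no adenoma library here, and the remaining 11 libraries are livers of 5 months. Because both tissues carry the exposure, the comparison is one of tumour with liver and not of exposure with control. The adenomas and the TBT livers share no replicate number, so no adenoma can be set beside the liver of the same animal. The labels give no strain and no histology. Nor do they say that the libraries come from different animals, and the tests below rest on the spread between libraries, which may in part be technical.

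In the adult liver hepatocytes divide rarely and carry out bile acid, drug, lipid and plasma protein metabolism in zones set by blood flow, with beta-catenin signalling marking the cells around the central vein. Kupffer cells, the resident macrophages, and a fenestrated endothelium line the sinusoids between the hepatocytes. A hepatocellular adenoma is a clonal growth of hepatocytes that lacks this ordered architecture and is fed mainly by arterial vessels.

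Total RNA was sequenced, and each library was deposited as read counts per coding gene, with 21920649 to 27563960 counts in the adenomas and 25973945 to 32850438 in the TBT livers. Levels are given below as counts per 1000000 (CPM), and values of the 5 TBT livers stand in the order of replicates 2, 4, 8, 9 and 10. On the first principal component of the 18 libraries of 10 months, which held 63.2% of the variance, the TBT livers lay at 29.32 to 43.93 and 6 adenomas at -92.73 to -45.35. Adenoma 7 stood apart at -16.62, and also on the second component, at 48.47. Where leaving that library out changed a call of a gene described below, or a count of calls by over 1.5 times, the value without it is given as well.

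The label of hepatocyte tissue was checked on hepatocyte genes. Alb, which encodes serum albumin, was at 80430, 84940, 85710, 75340 and 87330 CPM in the TBT livers and at 39020 to 85690 CPM with a median of 65360 CPM in the adenomas. Hnf4a, the nuclear receptor that maintains hepatocyte identity, was at 573, 605, 679, 599 and 477 CPM in the TBT livers and at 443 to 736 CPM with a median of 530 CPM in the adenomas. Neither was called different by edgeR (adjusted p = 0.0565 and 0.636), with log2 fold changes of -0.42 (SE 0.17) and -0.08 (SE 0.13). Alb was called lower with all libraries by DESeq2 (-0.41, adjusted p = 0.0221), limma-voom (-0.46, adjusted p = 0.0361) and voom with group weights (-0.46, adjusted p = 0.0247), and by edgeR without adenoma 7 (-0.51). These are bulk samples, in which fewer cells of a type and less RNA per cell cannot be told apart.

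Of 13474 genes tested, 3223 (23.9%) were higher and 2803 (20.8%) lower in adenoma than in TBT liver, at an adjusted p under 0.05 by edgeR's quasi-likelihood test with Benjamini-Hochberg adjustment. The increases were larger than the decreases: 1708 of the higher genes and 289 of the lower genes differed by at least 2-fold, and 236 and 27 by at least 10-fold. When the fold change itself was tested against a margin of 2-fold, 778 genes (5.77%) passed upward and 84 (0.623%) downward. Every adenoma lay above every TBT liver for 1375 genes (10.2%) and below every TBT liver for 1167 (8.66%). The median log2 fold change over all genes tested was 0.01. In the same fit TBT and VEH liver of 10 months differed in 0 genes by edgeR, with 595 genes at an unadjusted p under 0.05.

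**Figure D1:**
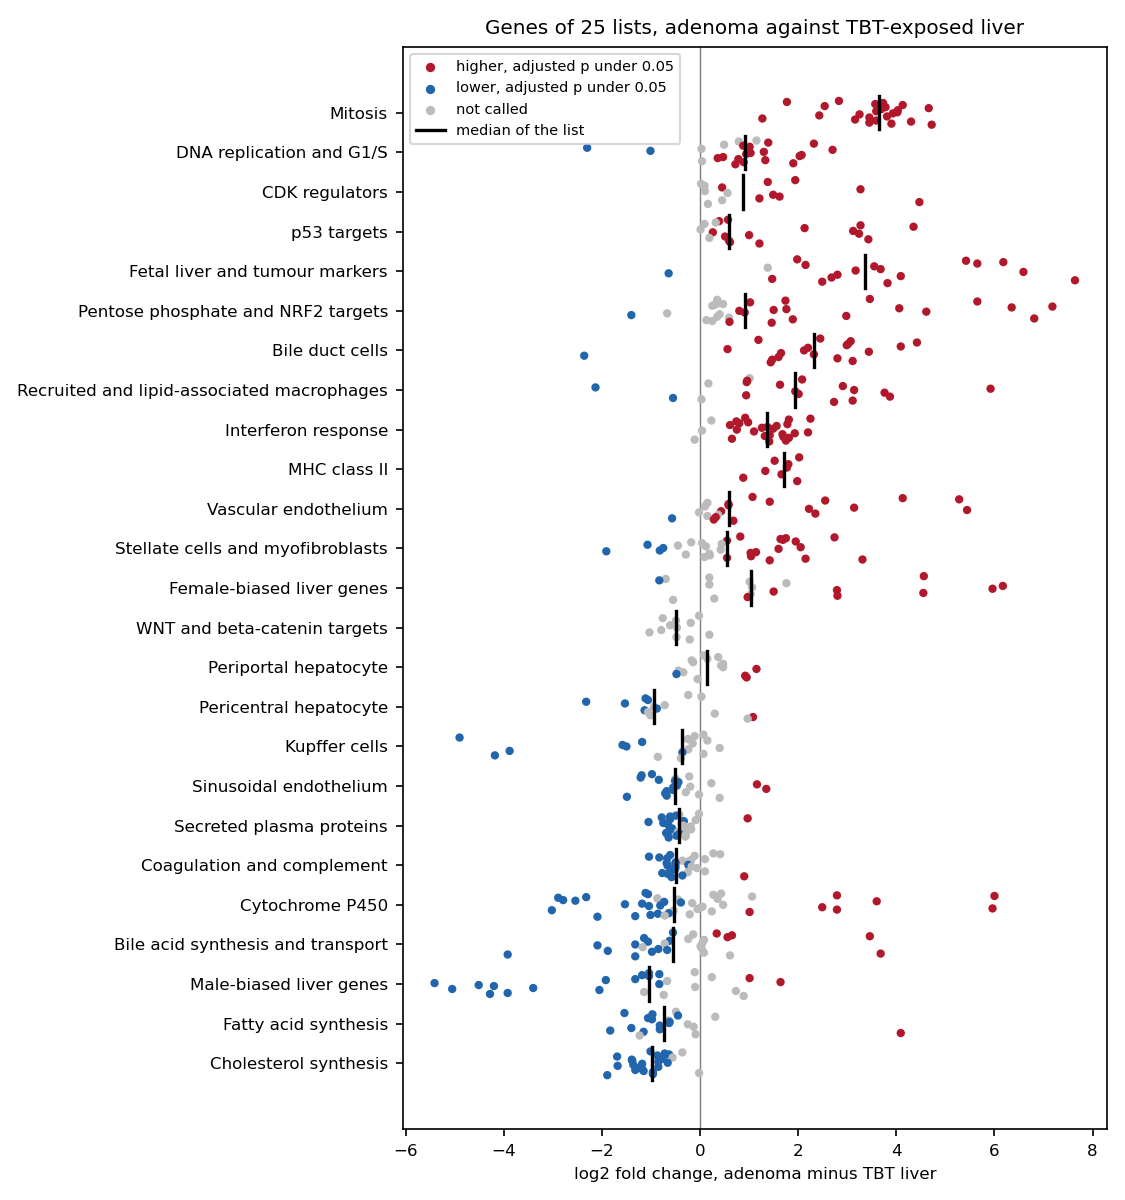
Log2 fold changes of adenoma minus TBT liver (horizontal axis) for the genes of 25 lists (vertical axis), 1 point a gene, red where higher and blue where lower at an adjusted p under 0.05 and grey otherwise, with a black line at each list's median. All 24 mitosis genes lie to the right of 0, with a median of 3.64, and the cholesterol synthesis genes lie to the left, with a median of -0.99.

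The genes with the largest increases had few or no reads in the livers. Lrtm2, which encodes a leucine-rich repeat membrane protein (ENSMUSG00000055003, chromosome 6, 119315133 to 119330766, minus strand), was at 0, 0, 0.368, 0 and 0 CPM in the TBT livers and at 8.65 to 28.9 CPM with a median of 21 CPM in the adenomas (log2 fold change 8.08, SE 0.62, adjusted p = 1.49e-07). Lrtm2 was above every liver in every adenoma, adenoma 7 included (17.6 CPM). Gpx2, a glutathione peroxidase of epithelia, was at 0, 0.119, 0.286, 0 and 0.0688 CPM in the TBT livers and at 0.665 to 45 CPM with a median of 9.71 CPM in the adenomas (log2 fold change 7.18, SE 1.12, adjusted p = 0.000103). Slc7a11, the cystine importer that feeds glutathione synthesis, was at 0.0349, 0.198, 1.84, 0 and 0.103 CPM in the livers and 2.08 to 126 CPM with a median of 30.8 CPM in the adenomas (log2 fold change 6.81, SE 1.16, adjusted p = 0.000204). Every adenoma was above every liver for both genes, and limma-voom did not call Slc7a11 (adjusted p = 0.0564).

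Krt20 and Eps8l3, a keratin and an actin regulator of intestinal epithelium, had 1 count each over all 5 TBT livers. Krt20 was at 0.0887 to 11.5 CPM and Eps8l3 at 0.0444 to 7.39 CPM in the adenomas, with adenoma 7 the lowest for both, and no fold is given for either. The other genes among the 10 largest increases were Spink1, a trypsin inhibitor (7.64), Timp4, a metalloproteinase inhibitor (7.62), Tekt5, a tektin (7.55), Aqp7, a glycerol channel (7.38), and Syt14, a synaptotagmin (6.82), each with few counts in the livers, so that these log2 fold changes depend on the prior count of the fit. Limma-voom did not call Spink1 or Timp4 (adjusted p = 0.0723 and 0.0598).

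Genes of male mouse liver were among the deepest decreases. Hsd3b5, which encodes a male-specific steroid dehydrogenase (ENSMUSG00000038092, chromosome 3, 98618634 to 98630252, minus strand), was at 387, 164, 276, 262 and 82 CPM in the TBT livers and at 0.398 to 14.9 CPM with a median of 3.08 CPM in the adenomas (log2 fold change -5.41, SE 0.67, adjusted p = 1.59e-05). The highest adenoma value, 14.9 CPM in adenoma 7, was still below the lowest liver. Susd4, a complement regulator, followed the same order, at 58.1, 35.9, 74.1, 47.9 and 23.8 CPM in the livers and 0.265 to 9.05 CPM with a median of 1.31 CPM in the adenomas (log2 fold change -4.28, SE 0.52, adjusted p = 1.48e-05). Mup16, Mup7, Mup12, Mup2 and Mup1, which encode major urinary proteins, had log2 fold changes of -5.64, -5.05, -5.00, -4.70 and -4.51. For Mup2, TBT liver 8 stood far above the other livers, at 142.7 CPM, so its fold leans on that library. DESeq2 gave Mup2 no adjusted p. Members of this cluster on chromosome 4 are nearly identical, so the share of reads given to each is uncertain. Mup20, the divergent member that carries the male odour darcin, was at 1283 to 3200 CPM in the livers and 1298 to 2713 CPM in the adenomas and was not called (log2 fold change -0.10, adjusted p = 0.75).

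The other genes among the 10 deepest decreases were Hhip, which encodes an inhibitor of hedgehog signals (-5.40), the Kupffer cell receptor gene Cd163 (-4.90), and Moxd1, a monooxygenase (-4.75). Hhip was at 9.22, 5.77, 7.72, 6.54 and 4.68 CPM in the TBT livers and at 0 to 0.368 CPM with a median of 0.119 CPM in the adenomas. Moxd1 differed widely between the livers, at 199.7, 0.356, 292, 5.66 and 0.825 CPM, and 2 of 7 adenomas lay below all of them. Its call was lost with limma-voom (-3.02, adjusted p = 0.294) and with group weights (-3.03, adjusted p = 0.474).

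Genes of cell division were raised throughout the mitosis list. All 24 of 24 mitosis genes tested were higher and 0 lower, against 23.9% higher among all genes, with a median log2 fold change of 3.64. Mki67, the proliferation antigen (ENSMUSG00000031004, chromosome 7, 135689784 to 135716361, minus strand), was at 4.12, 4.74, 2.08, 2.83 and 5.19 CPM in the TBT livers and at 5.68 to 76.9 CPM with a median of 43.5 CPM in the adenomas (log2 fold change 3.45, SE 0.52, adjusted p = 8.21e-05). Ccnb1, the cyclin that drives entry into mitosis, was at 0.419, 0.514, 0.164, 0.252 and 0.481 CPM in the livers and at 0.488 to 16.1 CPM with a median of 10.6 CPM in the adenomas (log2 fold change 4.66, SE 0.70, adjusted p = 6.89e-05). Ttk, a kinase of the spindle checkpoint, and Prc1, which bundles the microtubules of the central spindle, had log2 fold changes of 4.72 and 4.30. Birc5 and Nusap1, which act at the centromere and on the spindle, had log2 fold changes of 3.57 and 3.16.

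Adenoma 7 did not share this rise for most mitosis genes. It lay above every TBT liver for 6 of the 24, whereas each other adenoma did so for 23 or 24. Its Mki67 level was 5.68 CPM and its Ccnb1 level 0.488 CPM, the latter within the range of the livers. The median log2 ratio of the mitosis genes to the mean of the TBT livers was 0.24 in adenoma 7, 2.29 to 3.52 in the other adenomas and -0.29 to 0.25 in the livers. Without adenoma 7, 24 mitosis genes were again called higher, with a median of 3.85.

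The genes of DNA replication and entry into S phase moved less far. Of 24 tested, 17 were higher and 2 lower, with a median of 0.92. Adenoma 7 lay above every liver for 1 of the 17, and 20 were called higher without it. Gins2, a part of the replicative helicase, was at 0.349, 0.198, 0.572, 0.189 and 0.516 CPM in the TBT livers and 0.488 to 3.55 CPM with a median of 2.62 CPM in the adenomas (log2 fold change 2.70, SE 0.48, adjusted p = 0.000221), and Mcm6, another helicase subunit, at 4.51, 6.600, 5.39, 3.93 and 4.85 and 4.83 to 32.5 CPM with a median of 23.5 CPM (log2 fold change 2.03, SE 0.34, adjusted p = 0.000172). Adenoma 7 was within the liver range for both. Cdc6, which loads the helicase at origins, had a log2 fold change of 2.32.

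The 2 replication genes that went the other way were E2f8, a repressor of the E2F family that acts in the polyploidisation of hepatocytes, and Mcm10, a replication initiation factor. E2f8 (ENSMUSG00000046179, chromosome 7, 48866429 to 48881596, minus strand) was at 11.7, 12.6, 7.93, 19.2 and 22.1 CPM in the TBT livers and at 2.08 to 6.79 CPM with a median of 2.41 CPM in the adenomas (log2 fold change -2.30, SE 0.39, adjusted p = 0.000188), and each adenoma was below each liver. Mcm10 was at 108, 99.8, 39.7, 85.6 and 53.7 CPM in the livers and 26.3 to 46.04 CPM with a median of 37.8 CPM in the adenomas (log2 fold change -1.01, SE 0.26, adjusted p = 0.00399), with 4 of 7 adenomas below every liver. E2f7, the partner repressor of E2f8, was higher (log2 fold change 1.01, adjusted p = 0.0308), a call lost without adenoma 1, 11 or 12 or TBT liver 2 or 8 (0.77 to 0.95).

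Among regulators of cyclin-dependent kinases, 8 of 14 tested were higher and 0 lower, both drivers and inhibitors of the cycle. Ccnd1, cyclin D1, was at 31.7, 21.6, 10.9, 15.3 and 12.9 CPM in the TBT livers and at 51.6 to 93.1 CPM with a median of 65.3 CPM in the adenomas (log2 fold change 1.94, SE 0.24, adjusted p = 1.48e-05). Cdkn1a, the inhibitor p21 (ENSMUSG00000023067, chromosome 17, 29090976 to 29100727, plus strand), was at 1.12, 1.34, 1.14, 1.76 and 3.06 CPM in the livers and at 9.18 to 20.5 CPM with a median of 17.5 CPM in the adenomas (log2 fold change 3.27, SE 0.41, adjusted p = 1.41e-05). Every adenoma, adenoma 7 included (14.4 CPM), was above every liver for Cdkn1a. Trp53, the gene of p53 itself, was at 10.4 ± 0.784 against 6.92 ± 0.604 CPM (mean ± SD, n = 7 and 5) (log2 fold change 0.59, adjusted p = 8.88e-05). Of 18 genes on the p53 target list, 14 were higher and 0 lower, with a median of 0.60 and with adenoma 7 above every liver for 7 of the 14, Phlda3, an inhibitor of AKT signalling (3.24), and Tnfrsf10b, a death receptor (3.43), among them. Mdm2, which encodes the ligase that degrades p53, had a log2 fold change of 0.26 (adjusted p = 0.0148), and Ccng1, another p53 target, was at 50.7 to 62.02 CPM in the livers and 53.3 to 67.3 CPM in the adenomas and was not called.

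Myc, a transcription factor of growth, was above every TBT liver in every adenoma, at 5.91 to 9.18 CPM with a median of 7.23 CPM against 2.55, 3.87, 4.09, 1.92 and 3.37 CPM, and was nevertheless not called (log2 fold change 1.25, adjusted p = 0.0963). The fit takes its spread from VEH livers too, and those ranged over 1.01 to 22.7 CPM of Myc. With the 2 TBT tissues alone, edgeR called Myc higher (adjusted p = 4e-04), and limma-voom on all 18 libraries did so as well (adjusted p = 0.0414).

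Promoters of mitosis genes are shown because all members of that list moved together and such genes are known to be held by a complex that binds the element CHR (TTTGAA) next to CCAAT boxes. Each sequence, from RefSeq on GRCm38.p6, runs from 250 bases before to 50 bases after the annotated start of transcription, with CHR and CCAAT matches on either strand in capitals. Of the 24 mitosis genes, 19 matched the promoter table.
Ttk promoter, chr9:83834439-83834738, plus strand: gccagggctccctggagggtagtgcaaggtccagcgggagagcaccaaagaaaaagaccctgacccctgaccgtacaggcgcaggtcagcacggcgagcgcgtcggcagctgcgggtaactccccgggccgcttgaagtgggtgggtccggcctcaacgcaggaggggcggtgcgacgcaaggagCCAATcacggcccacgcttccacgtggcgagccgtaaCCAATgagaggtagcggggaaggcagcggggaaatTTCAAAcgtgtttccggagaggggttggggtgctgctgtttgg
Ccnb1 promoter, chr13:100786437-100786736, minus strand: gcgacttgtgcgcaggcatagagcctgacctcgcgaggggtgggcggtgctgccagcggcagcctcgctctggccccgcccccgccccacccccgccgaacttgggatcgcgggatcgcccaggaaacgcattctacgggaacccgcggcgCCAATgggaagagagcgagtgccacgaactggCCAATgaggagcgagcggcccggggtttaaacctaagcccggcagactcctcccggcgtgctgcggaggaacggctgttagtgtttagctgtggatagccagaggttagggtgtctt
Prc1 promoter, chr7:80294201-80294500, plus strand: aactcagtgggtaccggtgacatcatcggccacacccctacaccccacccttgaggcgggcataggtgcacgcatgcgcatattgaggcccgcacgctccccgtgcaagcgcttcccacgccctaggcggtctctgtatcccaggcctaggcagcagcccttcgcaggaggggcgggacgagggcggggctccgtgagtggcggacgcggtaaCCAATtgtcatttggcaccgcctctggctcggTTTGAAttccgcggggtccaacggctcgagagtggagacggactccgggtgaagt
The letters TTTGAA occurred on either strand in 14 of 20 mitosis promoters (70.0%), in 3 of 20 replication promoters (15.0%) and in 12.4% of 13518 promoters of tested genes. CCAAT occurred in 80.0% of the mitosis promoters, 75.0% of the replication promoters and 37.5% of promoters of tested genes. The 2 motifs do not overlap in their letters, and both stood in 65.0% of mitosis promoters and 4.96% of promoters of tested genes. Ccnb1 has CCAAT at 2 places and no TTTGAA in this window. A match is a description of these letters only.

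**Figure D2:**
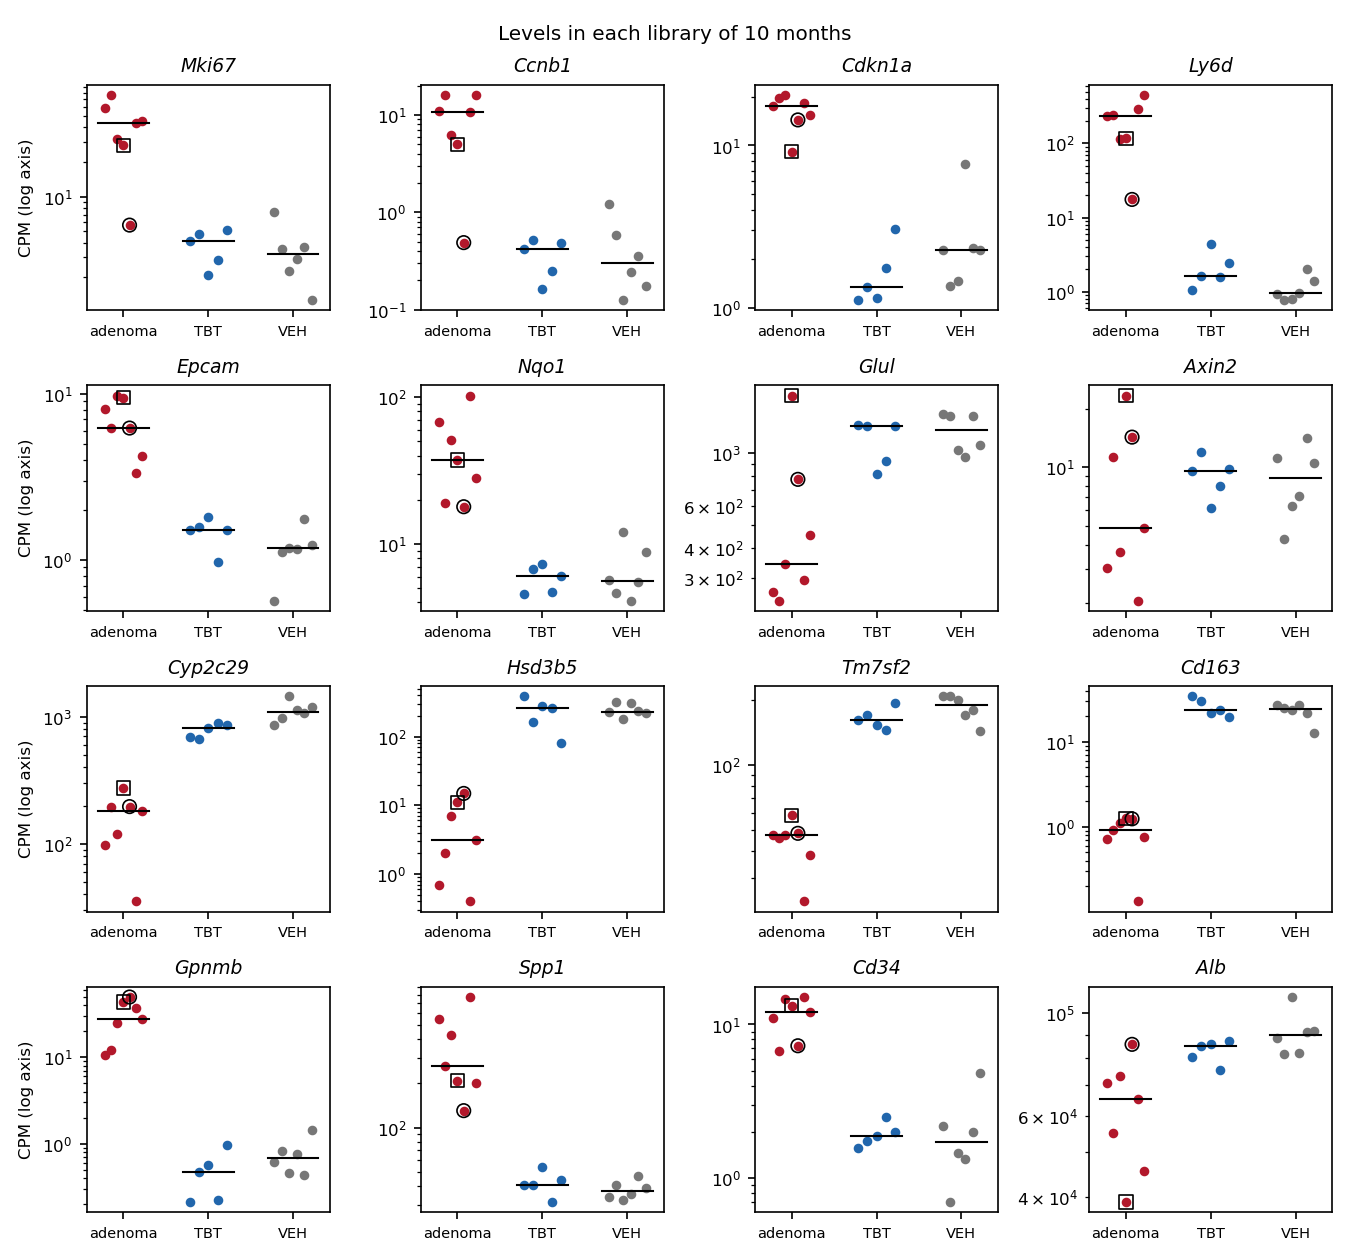
Levels in CPM on a log axis (vertical) of 16 genes in each library of 10 months, in adenoma (red, n = 7), TBT liver (blue, n = 5) and VEH liver (grey, n = 6), with a line at the group median, a circle around adenoma 7 and a square around adenoma 6. Adenoma 7 is the lowest adenoma for Mki67 and Ccnb1 and lies with the other adenomas for Cdkn1a and Cd163, and adenoma 6 is the highest for Glul and Axin2.

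Markers of fetal liver and of liver tumours were mostly higher. Of 18 tested, out of 22 in the table, 16 were higher and 1 lower, with a median log2 fold change of 3.36. Ly6d, a surface protein gene raised in mouse liver tumours (ENSMUSG00000034634, chromosome 15, 74762056 to 74763620, minus strand), was at 1.05, 1.62, 4.33, 1.57 and 2.44 CPM in the TBT livers and at 17.6 to 454 CPM with a median of 235 CPM in the adenomas (log2 fold change 6.59, SE 0.69, adjusted p = 4.28e-06). Afp, alpha-fetoprotein, the classic fetal serum protein, was at 2.27, 2.45, 2.901, 1.95 and 2.51 CPM in the livers and at 3.69 to 26.7 CPM with a median of 5.297 CPM in the adenomas (log2 fold change 1.98, SE 0.45, adjusted p = 0.00171). Both were above every liver in every adenoma.

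Other members of this group were a stem cell surface marker, transcription factors and enzymes. Prom1, the surface marker CD133, had a log2 fold change of 2.80, and the transcription factor Sox4 one of 2.68. Golm1, a Golgi membrane protein of tumour serum, had 3.55 and the steroid reductase Akr1c18 5.42. Peg3, an imprinted gene, was the 1 member called lower (log2 fold change -0.64, adjusted p = 0.0492), a call lost without adenoma 1, 3, 5 or 11 or TBT liver 2, 4, 8 or 9 (-0.69 to -0.49). Gpc3, a glypican used to stain liver cancer, ranged over 0.262 to 12.6 CPM in the adenomas and 0.454 to 1.64 CPM in the livers and was not called. Igf2, the imprinted fetal growth factor, did not pass the filter: it had 337 counts in adenoma 5 and 181 in adenoma 6, and 0 to 6 counts in the other 5 adenomas, against 1 count over all 5 TBT livers.

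Targets of beta-catenin signalling showed no common direction among the adenomas. Of 11 tested, 0 were called in either direction by edgeR, with a median log2 fold change of -0.48. Notum and Lect2 were among the members with an unadjusted p under 0.05. DESeq2 called 0 higher and 1 lower, and limma-voom 0 higher and 4 lower. Axin2, a feedback inhibitor of the pathway (ENSMUSG00000000142, chromosome 11, 108920349 to 108950783, plus strand), was at 9.54, 11.9, 6.17, 7.99 and 9.798 CPM in the TBT livers and at 3.04, 11.3, 3.65, 23.5, 14.3, 2.06 and 4.89 CPM in adenomas 1, 3, 5, 6, 7, 11 and 12. Adenomas 6 and 7 were above every liver and adenomas 1, 5, 11 and 12 below every liver.

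Adenoma 6 held the highest level of this group. The median log2 ratio of the beta-catenin targets to the TBT livers was 0.58 in adenoma 6 and -1.74 to 0.24 in the other adenomas, against -0.22 to 0.22 in the livers. Glul, glutamine synthetase, the enzyme confined to hepatocytes around the central vein (ENSMUSG00000026473, chromosome 1, 153899944 to 153909723, plus strand), was at 1299, 1292, 817, 927 and 1293 CPM in the TBT livers. In adenoma 6 it was at 1729 CPM, above every liver, in adenoma 7 at 774 CPM, and in the other 5 adenomas at 242 to 454 CPM. Over all 7, edgeR did not call Glul (log2 fold change -0.94, adjusted p = 0.0641), while limma-voom and voom with group weights called it lower (-1.28 in both, adjusted p = 0.0112 and 0.00362). Lgr5, a receptor of the pathway, was at 8.35 CPM in adenoma 6 and 0.696 to 5.95 CPM in the others, against 4.39 to 6.15 CPM in the livers. Without adenoma 6, edgeR called 4 of the 11 targets lower, Glul (-1.51) and Lect2 (-1.21) among them, and the list's median was -0.74. Without adenoma 7 it called 2, Notum (-0.86) among them.

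Pericentral hepatocyte genes were lower in part. Of 15 tested, 6 were lower and 1 higher, with a median of -0.94, and 9 were lower and 0 higher without adenoma 6. Cyp2e1, the cytochrome P450 that oxidises ethanol (ENSMUSG00000025479, chromosome 7, 140763739 to 140774987, plus strand), was at 6992, 5460, 7302, 6996 and 5889 CPM in the TBT livers and at 603 to 5653 CPM with a median of 1629 CPM in the adenomas (log2 fold change -1.53, SE 0.41, adjusted p = 0.00557). Its highest adenoma value was that of adenoma 7 and the next that of adenoma 6 (4020 CPM). Cyp2c29, another pericentral P450, was at 694, 665, 815, 892 and 863 CPM in the livers and at 35.3 to 275 CPM with a median of 182 CPM in the adenomas (log2 fold change -2.32, SE 0.32, adjusted p = 2.66e-05), with no overlap. Slc1a4, an amino acid transporter, was the member called higher (log2 fold change 1.08, adjusted p = 0.0498), a call lost without adenoma 1, 3, 6 or 7 or TBT liver 4, 9 or 10 (0.66 to 1.13). Periportal genes were mostly not called: of 15 tested, 3 were higher and 1 lower, with a median of 0.15. Among the 3, Hsd17b13, a lipid droplet protein, was at 764 ± 306 against 345 ± 81.8 CPM (mean ± SD, n = 7 and 5) (log2 fold change 1.15, adjusted p = 0.000801) and Sdsl, a serine dehydratase, had 0.95. Pigr, the transporter of immunoglobulin A into bile, was the 1 called lower (-0.48).

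Among 41 cytochrome P450 genes, which oxidise drugs, steroids and bile acids, 18 were lower (43.9%, against 20.8% of all genes tested). The number higher was 7 (17.1%, against 23.9%), and the median log2 fold change was -0.54. The fall was steepest in Cyp46a1 (-3.02) and in the Cyp2c family, with Cyp2c37 at -2.89 and Cyp2c50 at -2.79. Cyp2b10, the target gene of the receptor CAR (ENSMUSG00000030483, chromosome 7, 25897620 to 25926624, plus strand), went up, from 0.0699, 0.158, 0, 0.0629 and 0.206 CPM in the TBT livers to 0.665 to 26.8 CPM with a median of 2.38 CPM in the adenomas (log2 fold change 6.00, SE 1.05, adjusted p = 0.000235). Nr1i3, which encodes CAR, went down, from 34.5, 46.3, 62.1, 48.04 and 45.9 CPM to 5.004 to 41.5 CPM with a median of 12.5 CPM (log2 fold change -1.52, SE 0.41, adjusted p = 0.00694), with adenoma 7 within the liver range. Cyp2a5, a coumarin hydroxylase, was at 151, 229.9, 142, 73.2 and 122 CPM in the livers and 443 to 1597 CPM with a median of 1080 CPM in the adenomas (log2 fold change 2.79, SE 0.40, adjusted p = 4.82e-05). The Cyp2a, Cyp2c and Cyp3a families hold near-identical members, so reads may be shared between them.

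Several genes of bile acid synthesis and uptake were lower, and the genes Abcc4 and Slc51b of blood-side export were higher. Of 27 tested, 12 were lower (44.4%, against 20.8% of all genes tested) and 5 higher (18.5%, against 23.9%), with a median of -0.55. Slco1a1, a sinusoidal importer of organic anions (ENSMUSG00000041698, chromosome 6, 141907282 to 141946962, minus strand), was at 774, 749, 838, 831 and 514 CPM in the TBT livers and at 5.63 to 109 CPM with a median of 31.9 CPM in the adenomas (log2 fold change -3.92, SE 0.49, adjusted p = 1.7e-05). Slc10a1, the main sodium-dependent bile acid importer, was at 723, 757, 744, 613 and 628 CPM in the livers and 33.1 to 426 CPM with a median of 142 CPM in the adenomas (log2 fold change -1.88, SE 0.37, adjusted p = 0.000597). Cyp8b1, which makes cholic acid, was at 513, 599, 943, 776 and 667 CPM in the livers and 28.6 to 453 CPM with a median of 132 CPM in the adenomas (log2 fold change -2.09, SE 0.44, adjusted p = 0.00106). No adenoma reached the lowest liver for these 3 genes.

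Abcc4, which pumps bile acids back to blood, was at 3.53, 2.81, 3.06, 2.96 and 3.64 CPM in the TBT livers and 9.72 to 64.2 CPM with a median of 36.2 CPM in the adenomas (log2 fold change 3.46, SE 0.42, adjusted p = 1.19e-05), and Slc51b, a subunit of another basolateral exporter, had a log2 fold change of 3.68. Abcb11, the bile salt export pump of the canaliculus, was lower by less than 2-fold (-0.55, adjusted p = 0.0042), as was Nr1h4, the bile acid receptor FXR (-0.85, adjusted p = 1.97e-05). Cyp7a1, the rate-limiting enzyme of bile acid synthesis, ranged over 68.1 to 236 CPM in the livers and 17.8 to 192 CPM in the adenomas and was not called (log2 fold change -0.72, adjusted p = 0.311). Without TBT liver 2 or TBT liver 8, 3 rather than 5 genes of this list were called higher.

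Genes with a sex bias in mouse liver, set by the pulses of growth hormone, divided by that bias. Of 25 male-biased genes, 15 were lower and 2 higher (median -1.04), and of 18 female-biased genes, 8 were higher and 1 lower (median 1.04). The median of the female-biased genes was 2.28 without TBT liver 10 (12 of 21 tested higher), 1.68 without TBT liver 8 and 1.42 to 1.48 without each other TBT liver, with 11 higher in each and with more genes passing the filter. Without adenoma 7 or TBT liver 8, 2 female-biased genes were called lower. Taken per library, the list medians of the 2 tissues met or overlapped. As log2 ratios to the mean of the TBT livers, the male-biased medians were -1.94 to -0.49 in adenomas and -0.78 to 0.42 in livers. The female-biased medians were 0.31 to 1.44 in adenomas and -0.15 to 0.31 in livers. TBT liver 10 held both the -0.78 and the 0.31 of the livers. Cyp2a4, a female-biased testosterone hydroxylase (ENSMUSG00000074254, chromosome 7, 26307169 to 26315088, plus strand), was at 2.65, 3.64, 6.29, 1.04 and 1.93 CPM in the TBT livers and at 33.3 to 666 CPM with a median of 133 CPM in the adenomas (log2 fold change 6.17, SE 0.85, adjusted p = 3.62e-05). It was above every liver in every adenoma, although reads may be shared between Cyp2a4 and Cyp2a5, near-identical members of the Cyp2a family. Ghr, the growth hormone receptor, was lower (log2 fold change -0.74, adjusted p = 1.35e-05). Gstp2 and Cyp4a12b, male-biased genes with near-identical neighbours, were the 2 called higher (1.64 and 1.01), and Adh4 was the female-biased gene called lower (-0.83).

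Genes of glutathione and of the antioxidant factor NRF2 were higher in part of the list. Of 29 tested, 17 were higher and 1 lower, with a median of 0.91. Without adenoma 7, which lay above every liver for 12 of the 17, 20 were called higher. Nqo1, a quinone reductase and standard NRF2 target (ENSMUSG00000003849, chromosome 8, 107388225 to 107403206, minus strand), was at 4.58, 6.76, 7.36, 4.68 and 6.05 CPM in the TBT livers and at 17.9 to 102 CPM with a median of 37.2 CPM in the adenomas (log2 fold change 2.98, SE 0.44, adjusted p = 6.2e-05), with no overlap. Gsta1 and Gsta2, glutathione transferases that differ little in sequence, had log2 fold changes of 6.35 and 4.06, and Gstm3 one of 4.61. G6pdx, Pgd, Taldo1 and Tkt, the enzymes of the pentose phosphate pathway on the list, were not called, with log2 fold changes of 0.13 to 0.59, and Pgd was called higher without adenoma 7 (0.73). Me1, malic enzyme, was the 1 called lower, at 94.3 ± 29.6 against 249 ± 52.8 CPM (mean ± SD, n = 7 and 5) (log2 fold change -1.40, adjusted p = 0.00503).

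Glycolysis genes moved in both directions. Of 19 tested, 8 were higher and 2 lower, with a median of 0.13. Hk2, a hexokinase of growing cells, was at 3.004, 2.45, 2.58, 1.698 and 2.54 CPM in the TBT livers and 5.995 to 24.7 CPM with a median of 9.64 CPM in the adenomas (log2 fold change 2.15, SE 0.31, adjusted p = 3.46e-05), and Pkm, the pyruvate kinase gene of growing tissue, was also higher (0.90). Pdk1, the kinase that blocks pyruvate entry into mitochondria, was lower, at 157, 172, 204, 145 and 178 CPM in the livers and 26.9 to 66.6 CPM with a median of 40.9 CPM in the adenomas (log2 fold change -1.98, SE 0.18, adjusted p = 5.21e-07), and so was Ldha, lactate dehydrogenase A (-0.34), a call lost without adenoma 1, 3, 5 or 11 or TBT liver 2, 9 or 10 (-0.35 to -0.27). Of 16 genes of gluconeogenesis and glycogen, 8 were lower and 0 higher, with a median of -0.38, Pygl, glycogen phosphorylase (-0.89), and Gys2, glycogen synthase of liver (-0.62), among them. Without adenoma 5, TBT liver 4 or TBT liver 8, 5 of the 16 were called.

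Cholesterol synthesis was lower along nearly the whole pathway. Of 24 genes tested, 21 were lower and 0 higher, against 20.8% lower among all genes, with a median of -0.99. Tm7sf2, a sterol reductase (ENSMUSG00000024799, chromosome 19, 6062821 to 6068373, minus strand), was at 160.2, 170.4, 153, 145 and 194 CPM in the TBT livers and at 23.5 to 58.5 CPM with a median of 47.5 CPM in the adenomas (log2 fold change -1.89, SE 0.16, adjusted p = 1.69e-07). Hsd17b7, a reductase of the same late steps, was at 116, 116, 95.8, 92.2 and 105 CPM in the livers and 32.9 to 48.1 CPM with a median of 38.4 CPM in the adenomas (log2 fold change -1.39, SE 0.10, adjusted p = 6.13e-08). Neither gene overlapped between the tissues.

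Of the earlier steps, Fdps, farnesyl diphosphate synthase, was at 69.2, 66.4, 82.4, 33.3 and 93.8 CPM in the TBT livers and 12.1 to 38.03 CPM with a median of 20.7 CPM in the adenomas (log2 fold change -1.69, SE 0.31, adjusted p = 0.00034), and Mvd, mevalonate decarboxylase, had a log2 fold change of -1.68. Srebf2, the gene of the regulating factor SREBP2, was at 35.2 ± 5.93 against 35.8 ± 3.68 CPM (mean ± SD, n = 7 and 5) and was not called. For the 21 called genes adenoma 7 was below every TBT liver in 21, more often than any other adenoma (14 to 20), and 22 genes were called without it.

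Promoters of Tm7sf2 and Mvd, with log2 fold changes of -1.89 and -1.68, are shown with CCAAT matches on either strand in capitals, since the factors at sterol genes are known to act beside the CCAAT-binding factor NFY.
Tm7sf2 promoter, chr19:6067801-6068100, minus strand: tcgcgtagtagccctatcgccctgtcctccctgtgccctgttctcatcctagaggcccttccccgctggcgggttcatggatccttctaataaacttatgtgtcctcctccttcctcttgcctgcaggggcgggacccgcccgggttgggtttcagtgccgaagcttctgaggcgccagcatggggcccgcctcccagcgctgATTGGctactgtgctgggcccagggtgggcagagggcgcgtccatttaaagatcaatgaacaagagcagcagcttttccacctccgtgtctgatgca
Mvd promoter, chr8:122443373-122443672, minus strand: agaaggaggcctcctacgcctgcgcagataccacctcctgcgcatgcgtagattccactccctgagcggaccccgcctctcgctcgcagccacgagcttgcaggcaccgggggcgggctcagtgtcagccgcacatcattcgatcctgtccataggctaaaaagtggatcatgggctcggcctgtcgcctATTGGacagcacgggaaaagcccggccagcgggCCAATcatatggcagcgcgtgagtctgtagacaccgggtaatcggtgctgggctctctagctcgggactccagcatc
CCAAT or its complement stood in 84.2% of 19 promoters of 16 matched cholesterol genes, against 37.5% of promoters of tested genes. The core letters of the sterol element, TCACNCCAC, stood in 1 of the 19, against 1.21% of promoters of tested genes, and 1 match allows no comparison. For the list of pentose phosphate and NRF2 genes, the core TGACNNNGC stood in 27.3% of 33 promoters, against 14.1% of promoters of tested genes. The same core stood in 4 of 20 mitosis promoters, 4 of 20 replication promoters and 4 of 19 cholesterol promoters. Whether the lists differ in this core was not tested.

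**Figure D3:**
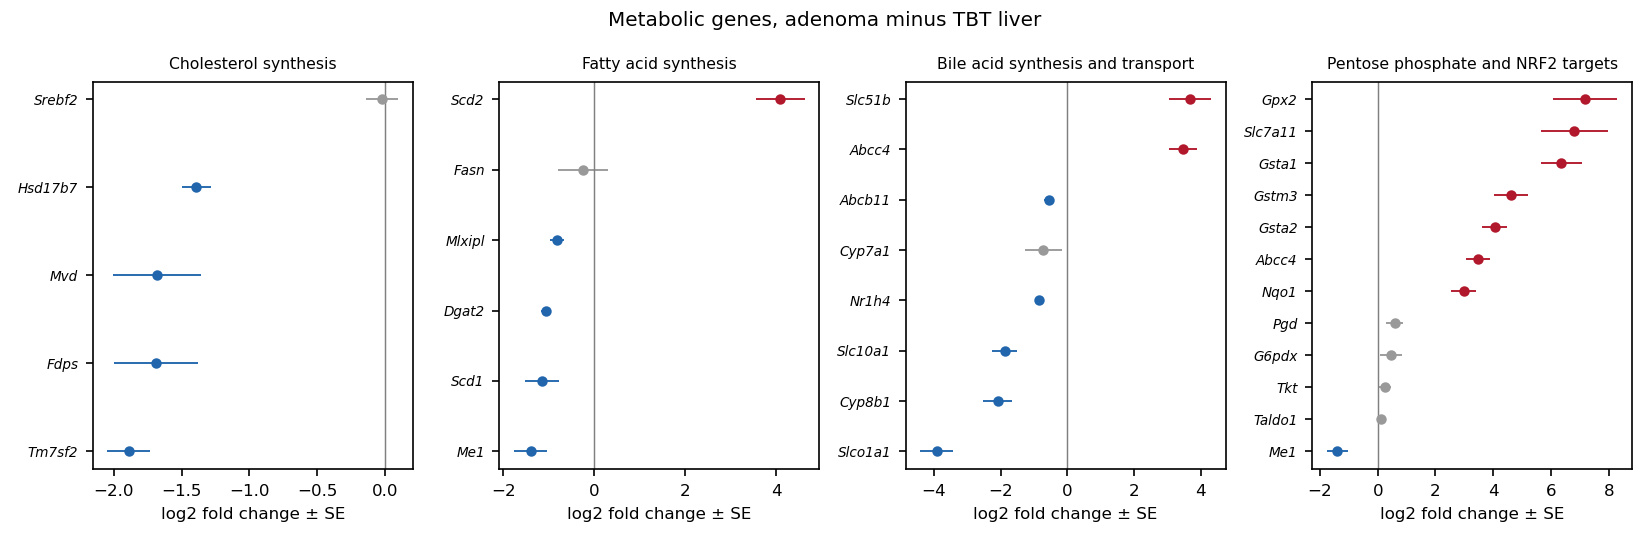
Log2 fold changes with SE (horizontal axes) of the genes named in the text (vertical axes) for cholesterol synthesis, fatty acid synthesis, bile acid genes and pentose phosphate and NRF2 genes, red where higher, blue where lower and grey where not called. The cholesterol genes shown lie between -1.89 and -0.02, while Scd2 (4.09) stands alone on the right among the fatty acid genes.

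Fatty acid synthesis was lower too, while 2 desaturase genes moved in opposite directions. Of 20 tested, 12 were lower and 1 higher, with a median of -0.73. Scd1, the desaturase of adult liver (ENSMUSG00000037071, chromosome 19, 44394455 to 44407879, minus strand), was at 20270, 28130, 8901, 17530 and 34320 CPM in the TBT livers and at 5734 to 17260 CPM with a median of 8314 CPM in the adenomas (log2 fold change -1.15, SE 0.38, adjusted p = 0.0207), with overlap and with the call lost without TBT liver 4 or 10 (-1.04 to -0.92). Scd2, the isoform of fetal liver and brain (ENSMUSG00000025203, chromosome 19, 44293674 to 44306864, plus strand), was at 8.28, 9.41, 9.44, 5.16 and 8.87 CPM in the livers and 14.7 to 312 CPM with a median of 128 CPM in the adenomas (log2 fold change 4.09, SE 0.54, adjusted p = 2.66e-05), without overlap. The groups thus moved in opposite directions for the 2 neighbouring genes on chromosome 19. In the adenomas the median of Scd1 (8314 CPM) was still far above that of Scd2 (128 CPM). Dgat2, which completes triglycerides, was lower (-1.06, adjusted p = 3.54e-06), as was Mlxipl, the glucose-sensing factor ChREBP (-0.82, adjusted p = 0.000301). Fasn, fatty acid synthase, ranged over 623 to 1928 CPM in the livers and 374 to 1810 CPM in the adenomas and was not called (-0.25, adjusted p = 0.729). Without TBT liver 10, 7 of the 20 were called lower.

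Of 20 genes on the list of lipid droplets and PPARG targets, 4 were higher and 4 lower, shares near the 23.9% and 20.8% of all genes tested. The number lower was 2 without adenoma 6 or 11 or TBT liver 4, 9 or 10, and the number higher was 8 without TBT liver 10. Lpl, lipoprotein lipase (ENSMUSG00000015568, chromosome 8, 68880491 to 68907448, plus strand), was at 19.04, 13.4, 16.6, 14.5 and 14.8 CPM in the TBT livers and 106 to 409 CPM with a median of 189 CPM in the adenomas (log2 fold change 3.76, SE 0.32, adjusted p = 3.67e-07). Cidec, a droplet protein and PPARG target, was at 4.02, 8.77, 1.64, 6.19 and 11.2 CPM in the livers and 22 to 170.4 CPM with a median of 51.5 CPM in the adenomas (log2 fold change 3.50, SE 0.53, adjusted p = 8.39e-05). Fabp4, a fatty acid carrier of fat cells and macrophages, had a log2 fold change of 3.19, and its highest value, 171 CPM, was that of adenoma 12. Pparg itself, the receptor that TBT is known to activate, was at 12.4, 16.1, 10.01, 14.9 and 23.6 CPM in the livers and at 9.93 to 30.7 CPM with a median of 19.9 CPM in the adenomas and was not called (0.39, adjusted p = 0.295). G0s2 and Mgll, which act on the breakdown of triglyceride, were lower (-1.85 and -1.03). Adipoq, a defining marker of fat cells, was at 0 to 0.943 CPM in the livers and 0 to 5.53 CPM in the adenomas (2.52, adjusted p = 0.0628), and was called higher without adenoma 11 or TBT liver 2 (2.74 to 4.54). Of the 6 fat cell markers tested, 2 were higher and 1 lower, the number higher being 4 without TBT liver 2 or 4 and 1 with limma-voom, and the number lower 2 without adenoma 12. The summed level of all 10 fat cell markers in the table was 598 to 2699 CPM in the adenomas and 1965 to 4172 CPM in the TBT livers. Most of it came from Car3, a carbonic anhydrase that hepatocytes also express. Lpl was also on the list of recruited and lipid-associated macrophages. The part of fat cells and of macrophages in the rise of Lpl and Fabp4 was not tested. Of 25 genes of fatty acid oxidation, 8 were lower (32.0%, against 20.8% of all genes tested). Ehhadh, a peroxisomal enzyme, was the 1 called higher (1.15), while Fabp1, the liver's fatty acid carrier, had -1.39.

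Secreted proteins of hepatocytes were lower by small amounts. Of 27 plasma protein genes, 15 were lower and 1 higher (median -0.42), with 20 lower without adenoma 7, and of 30 genes of coagulation and complement, 18 were lower and 1 higher (median -0.50). Apoa2, an apolipoprotein of high-density particles, was at 3721 ± 575 against 6394 ± 507 CPM (mean ± SD, n = 7 and 5) (log2 fold change -0.78, adjusted p = 3.75e-05), and C8g, a complement component, at 275 ± 33.6 against 438 ± 24.5 CPM (mean ± SD, n = 7 and 5) (log2 fold change -0.67, adjusted p = 1.67e-05). No adenoma reached the lowest liver for either. The exceptions were Apoa4, a chylomicron protein (0.97), whose call was lost without adenoma 3 or TBT liver 2 or 8 (0.81 to 0.84), and Pros1, the anticoagulant protein S (0.90). The number of coagulation and complement genes higher was 3 without TBT liver 8. Of 25 acute phase genes, 8 were higher (32.0%, against 23.9% of all genes tested) and 4 lower (16.0%, against 20.8%). Their log2 fold changes spanned -1.72 to 3.28, with a median of -0.11. Among the higher were Lcn2, which binds bacterial siderophores (3.17), and Orm2, an orosomucoid (2.33). The call of Orm2 was lost without adenoma 11 or TBT liver 2, 4, 9 or 10 (1.78 to 2.22). The number of acute phase genes lower was 2 without TBT liver 8. Saa1, a serum amyloid, spanned 17.8 to 917 CPM in the livers and 54.95 to 213 CPM in the adenomas and was not called.

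Transcription factors of hepatocytes were called lower in 17 of 31 and higher in 3, with a median of -0.27. The number of these factors higher was 0 without TBT liver 10 and 1 without adenoma 3 or TBT liver 2, 8 or 9. Onecut1 was at 37.5, 17.98, 3.43, 22.8 and 19.5 CPM in the TBT livers, a wide range, and at 2.55 to 4.701 CPM with a median of 4.44 CPM in the adenomas (log2 fold change -2.36, SE 0.58, adjusted p = 0.00328). Of 20 clock genes, 6 were lower (30.0%, against 20.8% of all genes tested) and 0 higher, and 3 were called without TBT liver 2 or 4. Dbp (-2.55) and Hlf (-0.95), transcription factors of the clock's output, were among the 6. For 0 of the 20 did every adenoma lie below every TBT liver. The list's median log2 ratio was -0.75 to 0.01 in the adenomas and -0.39 to 0.47 in the livers, with overlap. The call of Dbp was lost without TBT liver 2 or 4 (-2.02 to -2.01). The hour of tissue collection is not given in the sources used here, so its part in the levels of clock genes was not tested.

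Amino acid metabolism was mostly not called: of 32 genes, 6 were lower (18.8%, against 20.8% of all genes tested). The number higher was 4 (12.5%, against 23.9%), and the median was -0.10. Acmsd, an enzyme of tryptophan breakdown, was at 73.9 ± 27.9 against 19.6 ± 3.32 CPM (mean ± SD, n = 7 and 5) (log2 fold change 1.91, adjusted p = 2.28e-05), and Haao, of the same pathway, at 307 ± 52.1 against 557 ± 38.02 CPM (mean ± SD, n = 7 and 5) (log2 fold change -0.86, adjusted p = 1.97e-05). Without adenoma 7, 12 of the 32 were called lower. The serine synthesis genes Psat1 and Phgdh, on the list of the stress factor ATF4, were higher (2.30 and 1.32). That list had 8 of 26 genes higher (30.8%, against 23.9% of all genes tested) and 3 lower, or 6 lower without adenoma 11. Of 13 genes encoded by mitochondrial DNA, 0 were called by edgeR and limma-voom and 1 by DESeq2, with a median of 0.14. Of 25 nuclear genes of oxidative phosphorylation 7 were lower (28.0%, against 20.8% of all genes tested), and 4 were called without TBT liver 10. Ndufb8 and Cox5a, subunits of complexes I and IV, lay furthest (-0.41 and -0.32).

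Among macrophage genes, some that define resident Kupffer cells were lower, while most of those of recruited and lipid-handling macrophages were higher. Of 17 Kupffer genes, 7 were lower and 0 higher (median -0.36). Cd163, the haemoglobin scavenger receptor (ENSMUSG00000008845, chromosome 6, 124304656 to 124330527, plus strand), was at 34.4, 30.4, 21.6, 23.7 and 19.8 CPM in the TBT livers and at 0.133 to 1.25 CPM with a median of 0.913 CPM in the adenomas (log2 fold change -4.90, SE 0.29, adjusted p = 7.46e-09). Timd4, a receptor for dying cells, was at 6.95, 9.09, 7.805, 6.85 and 5.33 CPM in the livers and 0.166 to 0.665 CPM with a median of 0.397 CPM in the adenomas (log2 fold change -4.18, SE 0.26, adjusted p = 7.46e-09). Marco, a scavenger receptor, had a log2 fold change of -3.88 and Clec4f, a lectin of Kupffer cells, one of -1.18. No adenoma overlapped the livers for these 4 genes. The summed level of the Kupffer list was 921 to 1343 CPM in the adenomas and 1102 to 1407 CPM in the TBT livers. Csf1r, the growth factor receptor of macrophages in general, was at 80.1 ± 11.9 against 89.1 ± 18.9 CPM (mean ± SD, n = 7 and 5) and was not called. Adgre1, the antigen F4/80, was at 43.3 ± 12.6 against 41.4 ± 6.701 CPM (mean ± SD, n = 7 and 5) and was not called either.

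Of 19 genes of recruited and lipid-associated macrophages, 14 were higher and 2 lower (median 1.94). Gpnmb, a glycoprotein of lipid-laden macrophages (ENSMUSG00000029816, chromosome 6, 49036546 to 49070929, plus strand), was at 0.2096, 0.474, 0.572, 0.2201 and 0.963 CPM in the TBT livers and at 10.6 to 49.98 CPM with a median of 28.1 CPM in the adenomas (log2 fold change 5.92, SE 0.51, adjusted p = 5.19e-07), the highest value being that of adenoma 7. Trem2, a lipid-sensing receptor, was at 1.43, 0.632, 1.51, 0.912 and 1.100 CPM in the livers and 4.48 to 13.5 CPM with a median of 6.92 CPM in the adenomas (log2 fold change 2.73, SE 0.30, adjusted p = 3.18e-06). Every adenoma exceeded every liver for both. Spp1, osteopontin, which bile duct cells also make, had a log2 fold change of 3.11, and Ccr2, the receptor of recruited monocytes, one of 2.08. Mrc1 and Fabp5 were the 2 called lower (-0.55 and -2.13). The summed level of the whole list was 844.1 to 2122 CPM in the adenomas and 562.0 to 714.4 CPM in the livers.

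Genes of the interferon response and of antigen presentation on MHC class II were higher. Of 27 interferon genes, 24 were higher and 0 lower, with a median of 1.37. Mx1, an antiviral GTPase, was at 1.397, 1.304, 1.39, 1.51 and 1.07 CPM in the TBT livers and 3.15 to 9.37 CPM with a median of 6.13 CPM in the adenomas (log2 fold change 2.20, SE 0.25, adjusted p = 4.33e-06), and Cxcl10, a chemokine that draws T cells, at 1.36, 1.54, 1.31, 1.48 and 2.96 and 4.66 to 13.5 CPM with a median of 6.97 CPM (log2 fold change 2.25, SE 0.29, adjusted p = 1.21e-05). The median log2 ratio of the list was 2.12 in adenoma 1, the highest, and 0.69 in the lowest adenoma. Of 8 MHC class II genes tested, 8 were higher with a median of 1.71, Ciita, their master regulator (1.52), and H2-Eb1 (1.98) among them, and the highest list value, 2.83, was that of adenoma 11. MHC class I genes moved little, with 5 of 15 higher and 1, H2-K1, lower (-0.30), a call lost without adenoma 3, 6, 7 or 12 or TBT liver 2, 4, 8 or 10 (-0.31 to -0.24). The number of class I genes higher was 2 without adenoma 11 or TBT liver 9 or 10, 3 without adenoma 1 or 12 or TBT liver 4, and 8 without adenoma 7.

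Of 18 T and NK cell genes tested, out of 25 in the table, 10 were higher and 1 lower, at low levels. Cd8a, the co-receptor of cytotoxic T cells, was at 0.2795, 0.751, 0.409, 0.252 and 0.138 CPM in the TBT livers and 1.06 to 2.48 CPM with a median of 1.35 CPM in the adenomas (log2 fold change 2.06, SE 0.39, adjusted p = 0.000347), while Cd4 was at 1.52 ± 0.869 against 1.61 ± 0.562 CPM (mean ± SD, n = 7 and 5) and was not called. The summed level of the T and NK genes was 27.76 to 55.55 CPM in the adenomas and 19.95 to 31.64 CPM in the livers, so the groups overlapped. B and plasma cell genes were mostly not called, with 1 of 12 higher and 1 lower, and of 6 neutrophil genes 0 were higher and 1 was lower. Among 21 checkpoint and chemokine genes, 15 were higher and 3 lower. Vtcn1, the inhibitory ligand B7-H4, was at 0.0699, 0.158, 0.368, 0.126 and 0.0688 CPM in the livers and 1.52 to 7.12 CPM with a median of 2.78 CPM in the adenomas (log2 fold change 4.42, SE 0.48, adjusted p = 3.32e-06), and Cx3cl1, the membrane-bound chemokine fractalkine, had 2.92. Cxcl13, which draws B cells, was the deepest decrease of the list (-4.11).

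**Figure D4:**
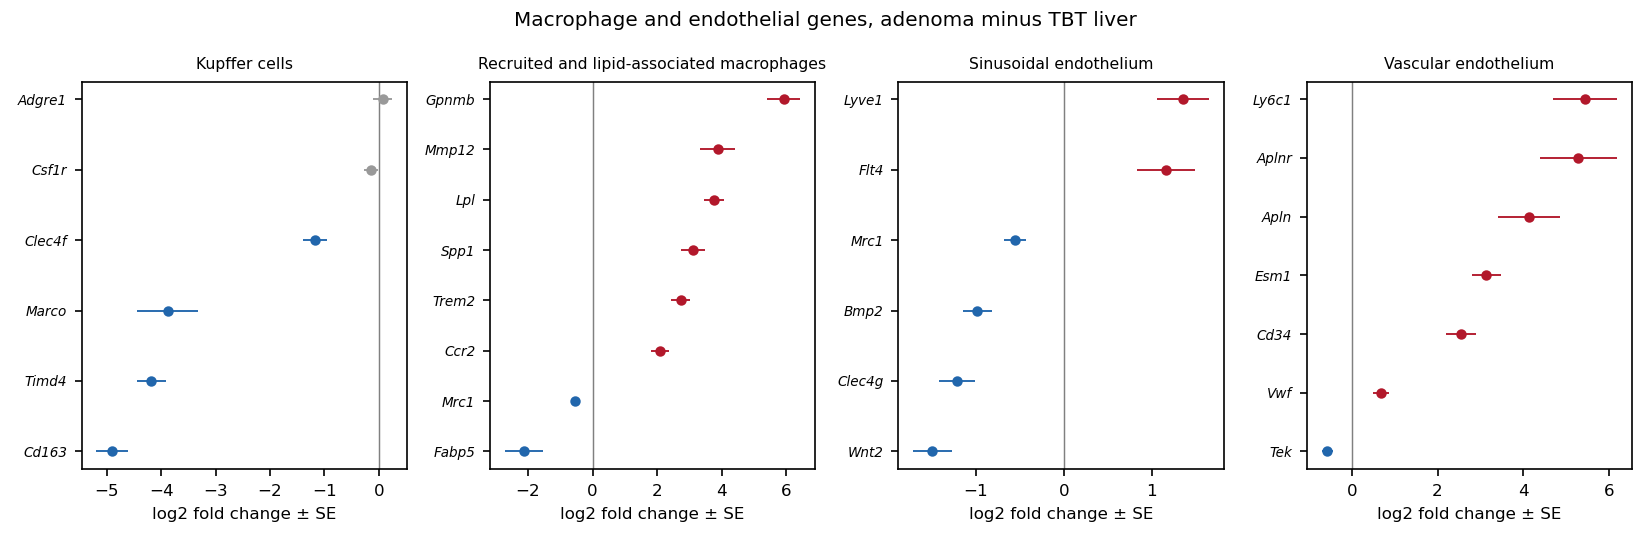
Log2 fold changes with SE (horizontal axes) of the genes named in the text (vertical axes) for Kupffer cells, recruited and lipid-associated macrophages, sinusoidal endothelium and vascular endothelium, red where higher, blue where lower and grey where not called. Cd163, Timd4 and Marco lie beyond -3 among the Kupffer genes, and Gpnmb (5.92) and Ly6c1 (5.45) head the recruited macrophage and vascular lists.

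Endothelial genes divided by vessel type. Of 22 genes of sinusoidal endothelium, 13 were lower and 2 higher (median -0.51), and of 21 of vascular endothelium, 15 were higher and 1 lower (median 0.58). Clec4g, a lectin of sinusoidal endothelium, was at 43.1, 65.1, 54.4, 60.6 and 67.5 CPM in the TBT livers and 11.98 to 40.01 CPM with a median of 23.4 CPM in the adenomas (log2 fold change -1.21, SE 0.21, adjusted p = 0.000179). Wnt2 and Bmp2, signals that this endothelium sends to hepatocytes, had log2 fold changes of -1.49 and -0.98. None of these 3 genes overlapped between the tissues. Lyve1 and Flt4, which lymphatic endothelium also expresses, were the 2 called higher (1.35 and 1.16).

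On the vascular side, Cd34, a surface marker of capillary endothelium (ENSMUSG00000016494, chromosome 1, 194938819 to 194961279, plus strand), was at 1.57, 1.74, 1.88, 2.52 and 1.99 CPM in the TBT livers and 6.71 to 15.1 CPM with a median of 12.1 CPM in the adenomas (log2 fold change 2.55, SE 0.35, adjusted p = 2.64e-05). Esm1, a product of sprouting tip cells, was at 0.314, 1.34, 0.695, 0.8803 and 1.27 CPM in the livers and 4.41 to 10.3 CPM with a median of 8.29 CPM in the adenomas (log2 fold change 3.14, SE 0.33, adjusted p = 2.57e-06), also without overlap. Apln and its receptor gene Aplnr, a pair of angiogenic signalling, had log2 fold changes of 4.13 and 5.28, and Ly6c1 one of 5.45. Vwf, the clotting factor of vessel walls, had 0.68. The summed level of the vascular list was 226 to 389 CPM in the adenomas and 198 to 232 CPM in the TBT livers, and that of the sinusoidal list 497 to 834 CPM in the adenomas and 861 to 1027 CPM in the TBT livers. Tek, the angiopoietin receptor, was the member called lower (-0.57), and Vegfa, the chief signal for vessel growth, was lower as well (-0.71, adjusted p = 4.77e-05).

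Of 30 genes of stellate cells and myofibroblasts tested, 16 were higher and 4 lower, with a median of 0.55. Col1a1, the chain of fibrillar collagen I (ENSMUSG00000001506, chromosome 11, 94936224 to 94953042, plus strand), was at 11.4, 7.27, 5.11, 3.899 and 7.53 CPM in the TBT livers and 28.2 to 73.7 CPM with a median of 40.03 CPM in the adenomas (log2 fold change 2.74, SE 0.31, adjusted p = 6.29e-06). Col6a3, of collagen VI, had a log2 fold change of 1.95 and Timp1, a metalloproteinase inhibitor, one of 3.31. Lrat, which stores vitamin A in quiescent stellate cells, was lower (-0.75, adjusted p = 0.0079), as were Ecm1, a secreted matrix protein, and Ngfr (-1.07 and -0.82). Acta2, the actin of myofibroblasts, was at 6.75 ± 2.505 against 3.82 ± 0.908 CPM (mean ± SD, n = 7 and 5) (log2 fold change 0.82, adjusted p = 0.0349), a call lost without adenoma 5, 6 or 12 or TBT liver 2, 4, 8 or 9 (0.67 to 0.86). The summed level of the stellate list was 2278 to 3182 CPM in the adenomas and 2324 to 3621 CPM in the TBT livers.

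Genes of bile duct epithelium were raised in nearly every case. Of 19 tested, 18 were higher and 1, Onecut1, was lower, with a median of 2.32. Epcam, an adhesion protein of ducts and progenitors (ENSMUSG00000045394, chromosome 17, 87635979 to 87651129, plus strand), was at 1.502, 1.58, 1.798, 0.975 and 1.51 CPM in the TBT livers and 3.35 to 9.75 CPM with a median of 6.23 CPM in the adenomas (log2 fold change 2.20, SE 0.28, adjusted p = 1.33e-05). Krt19, a duct keratin, was at 0.559, 0.474, 0.858, 0.912 and 1.48 CPM in the livers and 1.86 to 6.24 CPM with a median of 3.33 CPM in the adenomas (log2 fold change 2.12, SE 0.38, adjusted p = 0.000235). Ehf and Elf3, epithelial factors of the ETS family, had log2 fold changes of 2.99 and 4.09, and Cftr, the chloride channel of ducts, one of 3.07. Adenoma 7 was above every liver for all 18. The summed level of the whole list was 312.0 to 953.1 CPM in the adenomas and 110.0 to 147.8 CPM in the livers. Which cells hold this RNA was not tested.

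Of 25 adhesion genes, 14 were higher and 6 lower, with claudins on both sides. Cldn4, a claudin of ducts and other epithelia, was at 0.0349, 0.0395, 0.204, 0.126 and 0.0688 CPM in the TBT livers and 0.762 to 3.04 CPM with a median of 2.06 CPM in the adenomas (log2 fold change 4.42, SE 0.49, adjusted p = 4e-06), while Cldn12 fell (-0.44), as did the hepatocyte gap junction gene Gjb2 (-0.64). Ddr1, a collagen receptor, and Itgb6, an integrin subunit that activates TGF-beta, had log2 fold changes of 3.30 and 3.50.

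Of 36 growth factor and receptor genes, 18 were higher and 5 lower, with a median of 0.49. The ligands Hbegf and Btc, which activate the EGF receptor, had log2 fold changes of 2.21 and 2.47, Pdgfb, which drives stellate cells, 2.19, and Tgfb2 2.70. Without adenoma 7, 8 of the 36 were called lower. Of 17 genes of MAPK pathway feedback, 5 were higher (29.4%, near the 23.9% of all genes tested) and 0 lower, Dusp4, a phosphatase of the pathway (1.75), and Ier3 (2.17) among them. Of 16 genes of senescence and its secretions, 11 were higher and 1 lower, with Mmp12, a macrophage elastase, at 0.1397, 0.514, 0.572, 0.692 and 3.16 CPM in the TBT livers and 8.49 to 26.4 CPM with a median of 12.8 CPM in the adenomas (log2 fold change 3.87, SE 0.53, adjusted p = 3.16e-05), and Glb1, the lysosomal galactosidase, the 1 lower (-0.45).

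**Figure D5:**
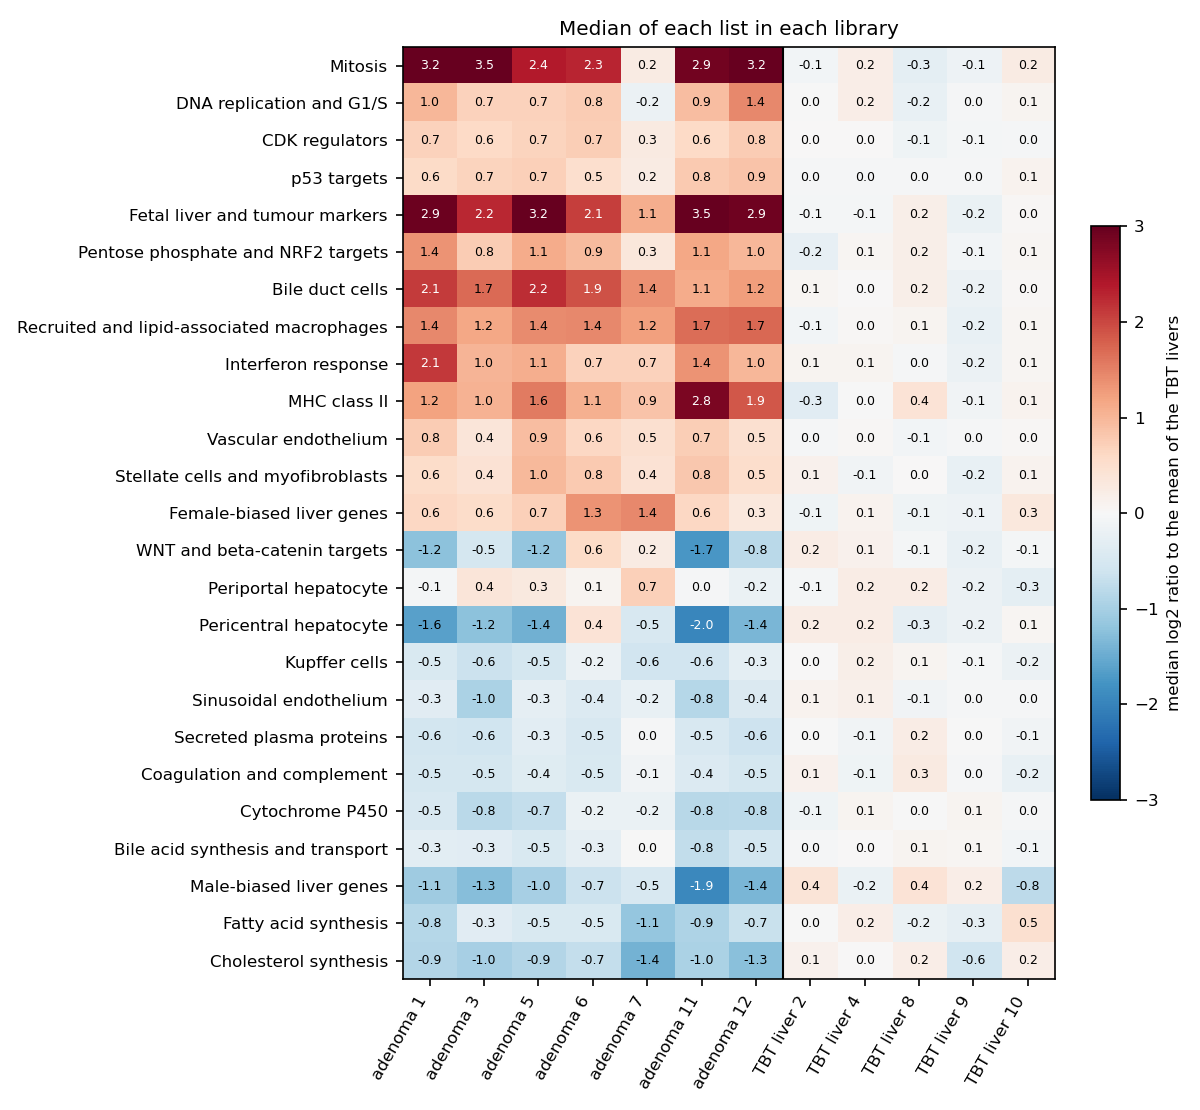
Median log2 ratio of the genes of 25 lists (rows) to the mean of the TBT livers, in each of the 7 adenomas and 5 TBT livers (columns), on a colour scale from -3 (blue) to 3 (red). Adenoma 7 has mitosis and replication medians near 0 beside bile duct and macrophage medians above 1, and adenoma 6 is the only adenoma with a positive pericentral median (0.42).

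The adenomas were thus not uniform, and they differed from one another by gene group. The genes counted in this paragraph were chosen by their calls on these same libraries, adenoma 7 included. That most adenomas lie beyond the livers therefore follows in part from the choice. Of the 778 genes higher past the 2-fold margin, adenoma 7 lay above every TBT liver for 607 (78.0%), and each other adenoma for 97.0% to 100%. Of the 84 genes lower past the margin, adenoma 7 lay below every TBT liver for 82 (97.6%), within the range of the other adenomas (95.2% to 98.8%). In that library 7 of 7 called Kupffer genes, 21 of 21 cholesterol genes, 8 of 8 MHC class II genes and 18 of 18 bile duct genes lay beyond every liver in the direction of the call. Other lists had fewer there: 7 of 14 p53 targets, 8 of 15 lower plasma protein genes, 11 of 18 lower coagulation and complement genes and 1 of 6 clock genes. The share of tumour tissue in each sample is not given in the sources used here. Without adenoma 7, edgeR called 6435 genes in all, with 937 past the margin upward and 104 downward.

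Set beside VEH liver, which shares the adenomas with the first comparison and so is no separate evidence, some of these genes had the following values. The log2 fold change of adenoma against VEH liver was 3.57 for Mki67, 7.52 for Ly6d, -5.49 for Hsd3b5, -4.72 for Cd163, -2.06 for Tm7sf2 and 5.29 for Gpnmb. For Myc it was 0.19 against VEH liver and 1.25 against TBT liver.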

How the data were processed

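Liver and adenoma RNA was prepared as stranded total RNA libraries, per the labels' protocols. The authors deposited whole-number read counts per gene, made with Trim Galore, HISAT2 and featureCounts on mm10, per the submitters' processing notes. The notes give no versions, annotation release or strand setting of the counting, so near-identical and overlapping genes are uncertain. Of 22028 genes in the table, 27 carried names turned into dates by a spreadsheet, which were restored. In 1 TBT liver library the number in the title differs from that of the data column, and 9 is used here. No pair of libraries within either tissue was identical: the chi-square over degrees of freedom was at least 45.254 between adenomas and 34.079 between TBT livers.

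The 18 libraries of 10 months were fitted together in edgeR 4.0.16 (R 4.3.3) with TMM scaling and the robust quasi-likelihood test, on 13474 genes kept by filterByExpr (count minimum 10, total 15). P-values were adjusted over all genes (Benjamini-Hochberg, threshold 0.05), and glmTreat tested a margin of 2-fold. CPM of single genes use the TMM library sizes of this fit. Summed levels of lists use TMM over all 29 libraries without a filter, and they include list genes that were not tested. The method was also run on simulated counts in which a small part of the genes differed, as many upward as downward. Far more genes were called here, and the larger differences were mostly upward. The simulation therefore does not give the error rates in these data. Alternatives were median-of-ratios scaling, no filter, a filter of 1 CPM in 5 libraries, DESeq2 1.42.0, limma 3.58.1 (voom, without and with group weights), the 2 TBT tissues alone, all 5 groups, and each library left out. A list's level per library is the median log2 ratio of its genes to the mean of the TBT livers.

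Genes named are the 10 highest and 10 lowest calls with at least 2 CPM in a tissue and no predicted genes, up to 2 higher and 2 lower per list by smallest adjusted p, and a set list of standard markers; others were chosen after their values were seen. Some genes of the lists are counted but not reported here by name. The comparison and the lists were chosen with earlier results of these data known. Gene coordinates are of GRCm38 (GENCODE M21) and promoters of RefSeq on GRCm38.p6.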

Additional observations from a re-analysis of the deposited data

Results flagged for a closer look

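Within each tissue, the highest or lowest library of each gene named above was set against the others by Dixon's ratio of gap to range, on log2(CPM + 0.5). This marked 37 of 398 groups, and chance alone marks about 1 in 20 groups. Values are in CPM.

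Adenoma 7 was the lowest adenoma, apart from the rest, for Ccnb1 (0.4878), Gsta1 (3.415), Gstm3 (47.14), Ly6d (17.56), Mki67 (5.676), Nusap1 (1.33), Pgd (18.63), Prc1 (0.7982) and Ttk (0.08869). It was the highest for Gjb2 (279.3). Adenoma 3 was the highest for Acmsd (134.8). Adenoma 3 was the lowest for Lyve1 (5.635) and Mrc1 (40.64). Adenoma 5 was the highest for Ccng1 (67.26). Adenoma 11 was the highest for Ciita (21.94). Adenoma 11 was the lowest for Cd163 (0.1326), Cox5a (59.95) and Ndufb8 (57.83). Adenoma 12 was the highest for E2f8 (6.788).

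Among the TBT livers, replicate 2 was the highest for Adipoq (0.9433) and Eps8l3 (0.03494). TBT liver 4 was the highest for Krt20 (0.03952) and Ptgds (1.541). TBT liver 8 was the highest for Lrtm2 (0.3678), Mup2 (142.7), Pygl (874.7), Slc7a11 (1.839), Tekt5 (0.1226), Ubd (2.779) and Vil1 (0.4904). TBT liver 9 was the highest for Ldha (1152) and Mdm2 (27.79). TBT liver 9 was the lowest for Scd2 (5.156). TBT liver 10 was the highest for Cxcl10 (2.957) and Sox4 (2.235). TBT liver 10 was the lowest for Notum (16.57) and Slco1a1 (514.5).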

How the results depend on the processing

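Against 6026 calls as reported, edgeR gave 5987 with median-of-ratios scaling, 6204 without a filter, 5505 with the stricter filter, 5258 on the 2 TBT tissues alone and 4604 on all 5 groups, DESeq2 6272, limma-voom 6031 and voom with group weights 5945. With single libraries left out, calls ran from 5305 (without TBT liver 9) to 6435 (without adenoma 7). Genes past the 2-fold margin fell from 862 to 444 on all 5 groups, with 395 higher and 49 lower, and ran from 721 to 1041 with single libraries left out; the cause was not tested. Of 199 genes named above, 162 kept both direction and call in every alternative that gave a value, and over all genes and alternatives 95 calls were lost and 20 gained. No called gene changed sign. Among genes not called, the log2 fold change crossed 0 when single libraries were left out for Adgre1 (-0.05 to 0.15), Axin2 (-0.49 to 0.15), Cd4 (-0.33 to 0.09), Fasn (-0.48 to 0.02), Mup20 (-0.25 to 0.04) and Srebf2 (-0.10 to 0.04). DESeq2 gave Mup2 no adjusted p. Of 48 list medians, 20 of 960 alternative values moved by more than the spread between adenomas, most often for fat cell and female-biased genes. Counts of list members higher moved for T and NK genes (6 rather than 10 with the stricter filter), MAPK feedback genes (8 rather than 5 with limma-voom or the 2 TBT tissues alone), hepatocyte transcription factors (3 to 0 on the 2 TBT tissues and 1 with limma-voom, without a filter or on all 5 groups), MHC class I genes (5 to 2 on the 2 TBT tissues and 3 with limma-voom or without a filter), pericentral genes (1 to 2 with the stricter filter or DESeq2) and fat cell markers (2 to 1 with limma-voom or group weights). Counts lower moved for beta-catenin targets (0 to 5 with group weights), amino acid genes (6 to 10 with limma-voom or group weights and 3 on the 2 TBT tissues), fatty acid synthesis genes (12 to 7 with group weights), stress genes of ATF4 (3 to 5 with limma-voom and 1 on all 5 groups), gluconeogenesis genes (8 to 5) and oxidative phosphorylation genes (7 to 4), both on the 2 TBT tissues and on all 5 groups, and, on all 5 groups, fatty acid oxidation genes (8 to 4), lipid droplet genes (4 to 2) and acute phase genes (4 to 2). Lists with 2 genes lower had 1 for glycolysis on the 2 TBT tissues, recruited macrophages with group weights and intestine and pancreas with the stricter filter. Without TBT liver 10 the median of the P450 genes was -0.30 rather than -0.54, and without TBT liver 2 that of the bile acid genes -0.36 rather than -0.55. Further calls were lost with limma-voom for A1bg, Dbp, Ptgds and Slc1a4, with group weights for A1bg, Dbp, Fabp5, Ptgds, Scd1 and Slc1a4, and on all 5 groups for Car3, Krt19, Lcn2, Mdm2, Phgdh, Pigr and Vwf, beside genes whose calls were also lost with single libraries left out. No paired analysis was possible because the adenomas and the TBT livers share no replicate number. Single counts limit the genes that were near 0 in the livers, whose fold changes depend on the prior count.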

Other observations

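Several other genes had large differences, and they are named here after their values were seen. Vil1, which encodes villin of the brush border, was at 0.175, 0.198, 0.4904, 0.126 and 0.138 CPM in the TBT livers and at 0.976 to 20.3 CPM with a median of 5.41 CPM in the adenomas (log2 fold change 5.27, SE 0.81, adjusted p = 8.39e-05 by edgeR). Tm4sf20, a membrane protein of intestinal epithelium, was at 0 to 0.356 CPM in the livers and 0.177 to 16.5 CPM in the adenomas (log2 fold change 5.64, SE 1.12, adjusted p = 0.000675). For both, as for Krt20 and Eps8l3, adenoma 7 had the lowest adenoma value. Of the 5 tested markers of intestine and pancreas, Vil1 was the 1 called higher and 2 were lower. The summed level of all 16 such markers in the table was 380.4 to 521 CPM in the adenomas and 473 to 658 CPM in the TBT livers. Most of it came from Mttp, a lipid transfer protein that hepatocytes also express.

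Scn2a, a voltage-gated sodium channel of neurons, was at 0.105, 0.0395, 0.0817, 0.0314 and 0.138 CPM in the TBT livers and at 3.61 to 9.84 CPM with a median of 5.995 CPM in the adenomas (log2 fold change 6.21, SE 0.41, adjusted p = 1.5e-08), and adenoma 7, at 6.39 CPM, lay within the range of the others. Cacna1b, a neuronal calcium channel, was at 0 to 0.0688 CPM in the livers and 0.3104 to 5.26 CPM in the adenomas (log2 fold change 6.04, SE 0.89, adjusted p = 4.78e-05). Ubd, a ubiquitin-like protein induced by interferon, was at 0.594, 0.672, 2.78, 0.503 and 0.8595 CPM in the livers and 6.83 to 298 CPM with a median of 70.3 CPM in the adenomas (log2 fold change 6.61, SE 0.86, adjusted p = 2.3e-05). Ptgds, a prostaglandin synthase, spanned the adenomas most widely of these genes, at 295 CPM in adenoma 1 and 0.577 CPM in adenoma 7, against 0.447 to 1.54 CPM in the livers. A1bg, a plasma glycoprotein of female mouse liver, was at 18.2 and 19.3 CPM in adenomas 6 and 7 and at 0.439 to 0.885 CPM in the other 5, against 0.0409 to 0.516 CPM in the livers.

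The median log2 ratio to the mean of the TBT livers was taken over genes of at least 5 CPM on each chromosome. It lay within 0.03 of 0 in every TBT liver, whose own mean was the reference. On chromosome 15 (391 genes) it was 0.37 and 0.40 in adenomas 11 and 12, 0.15 and 0.23 in adenomas 1 and 3, and -0.08 to -0.01 in adenomas 5, 6 and 7. On chromosomes 2, 4, 8, 9, 12, 17 and 19 it was -0.01 or lower in all 7 adenomas. On chromosomes 1, 3, 6, 7, 10, 11 and 13 it was below 0 in most adenomas as well. Whether single chromosomes depart from a general shift of the genes used was not tested. The lowest values were those of adenoma 11, at -0.49 on chromosome 19, -0.44 on chromosome 4, -0.41 on chromosome 12 and -0.40 on chromosome 9. These are medians of RNA levels, and the copy number of the chromosomes was not measured.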
